A study of Arabidopsis thaliana with 12 samples.

Results

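The B3 domain is a DNA-binding domain found in plants, and the genes that carry it fall into the LAV, ARF, RAV and REM families. LAV factors such as VAL1 act on the seed maturation programme, ARF factors pass on the auxin signal, RAV factors shape lateral organs and flowering, and many REM genes (reproductive meristem) are known for expression in flowers. The 4 B3 genes described here were NGAL1 (AT2G36080), a RAV factor, and the REM family genes AT5G60140, AT5G32460 and AT3G46770. They were 4 of the 46 B3 genes that could be named on the arrays and 4 of the 22746 probe sets tested. NGAL1 is also known as ABS2, it is a repressor of the genes that set organ boundaries, and plants with raised ABS2 lose petals. No role is given here for the 3 REM genes. They were chosen by their measured fold change in flower buds, since the study lists them as more abundant in those of the scion, a list made with a fold criterion between these groups and a one-way analysis of variance, whose groups the methods do not name. Their differences in flower buds are therefore a description and carry no test.

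The plants were Arabidopsis thaliana Col-0, and the top of each young inflorescence stem had been cut and grafted back onto its own plant (a homograft). Unopened flower buds and newly emerged leaves were taken in the days and weeks after grafting from side branches above the graft (scion) and below it (rootstock), on both sides at the same time, of the plants whose scions grew best. This gave 4 groups, namely flower buds of the scion and of the rootstock and leaves of the scion and of the rootstock, each with 3 arrays of 1 sample, 12 in all. Ungrafted stems form no group here, so the effect of the graft and of the position on the stem cannot be told apart. The samples are whole organs, in which fewer cells of a type and less RNA per cell cannot be told apart.

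The values are log2 values centred so that the 12 arrays of a probe set have a median of 0, and they give differences between groups and no expression level. A value of 1 lies 2-fold above that median, and values of different genes cannot be ranked against each other. Some arrays stood apart. Leaf signal was read from 44 probe sets at least 5 log2 units higher in rootstock leaves than in rootstock flower buds. It is the median over these probe sets of the signal, each as a percentage of its mean in rootstock leaves. It was 10.5% in scion flower bud 1, 2.86% and 2.69% in the other scion flower buds, and 1.99% to 2.21% in rootstock flower buds. It reached only 21.4% in scion leaf 3 and 46.6% in rootstock leaf 3, against 103% and 145% in the other scion leaves and 130% and 180% in the other rootstock leaves. Over 93 probe sets higher in rootstock flower buds by the same margin, the signal was 59% to 87% in scion flower buds and 95.8% to 103% in rootstock flower buds, a difference that choosing these probe sets on the rootstock arrays favours. In leaves this bud signal was 2.49%, 1.36% and 3.43% in scion replicates 1 to 3, against 1.56%, 1.14% and 1.51% in the rootstock, which the same choice favours. Its part in the leaf differences was not tested.

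**Figure D1:**
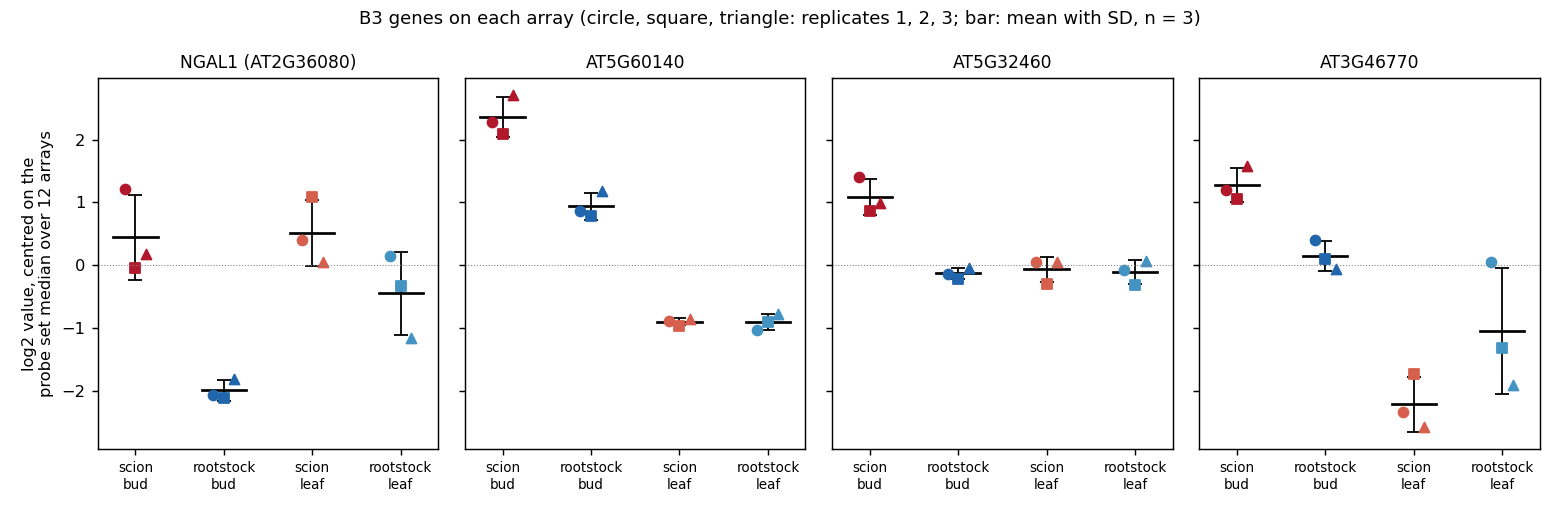
Centred log2 value (y axis) of the 4 B3 genes on each of the 12 arrays, by group (x axis), with the group mean and SD (n = 3) as a line and bar. In flower buds the scion arrays lie above the rootstock arrays for each gene, which the choice of the genes favours. In leaves both groups overlap for each gene.

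NGAL1 had the largest difference in flower buds of the 4 genes and the same direction in leaves. In scion flower buds its values were 1.21, -0.05 and 0.17, against -2.07, -2.12 and -1.81 in rootstock flower buds. Every scion flower bud lay above every rootstock flower bud, by at least 1.76, and scion flower bud 1 lay highest of all 12 arrays. The scion mean was 0.44 ± 0.67 and the rootstock mean -2.00 ± 0.17 (SD, n = 3 each), a difference of 2.44 (SE 0.40) or 5.44-fold, which ranked 57 from the top among the 22746 probe sets. Without scion flower bud 1, the array with raised leaf signal, the difference was 2.06.

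In leaves NGAL1 had values of 0.41, 1.09 and 0.05 in the scion and of 0.15, -0.33 and -1.16 in the rootstock. The groups overlapped, since scion leaf 3 lay below rootstock leaf 1. Leaves of the same replicate number differed by 0.26, 1.42 and 1.22, the scion leaf being higher each time, but whether the numbers pair the leaves is not settled. The difference of 0.96 (SE 0.40, 95% interval 0.08 to 1.85) did not pass the test in limma (adjusted p = 0.652, unadjusted p = 0.0357), and leaving out any 1 array kept it between 0.61 and 1.26. The groups thus ran, from the highest mean, scion leaves, scion flower buds, rootstock leaves and rootstock flower buds. Scion leaves and scion flower buds differed by 0.07, far less than their spread, and rootstock flower buds were 1.55 below rootstock leaves with no overlap. The low group of this gene was thus rootstock flower buds.

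AT5G60140 was highest in flower buds on both sides of the graft. Its values were 2.29, 2.10 and 2.71 in scion flower buds, against 0.86, 0.78 and 1.18 in rootstock flower buds. Both groups were narrow and stood 0.92 apart at their nearest arrays. The scion mean of 2.37 ± 0.31 and the rootstock mean of 0.94 ± 0.21 (SD, n = 3 each) differed by 1.43 (SE 0.17), or 2.69-fold. Leaf values lay between -0.97 and -0.85 in the scion and between -1.04 and -0.78 in the rootstock. This gene showed almost no spread in leaves, with a scion minus rootstock difference of 0.01 (SE 0.17, 95% interval -0.37 to 0.38, limma adjusted p = 0.999). Flower buds lay above leaves by 3.27 in the scion and by 1.85 in the rootstock, with no overlap on either side, so the order of means was scion flower buds, rootstock flower buds and then both leaf groups, which did not differ beyond their spread.

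AT5G32460 stood out in scion flower buds and lay close to its median everywhere else. Its values were 1.41, 0.86 and 0.99 in scion flower buds, against -0.14, -0.21 and -0.05 in rootstock flower buds. The nearest arrays of these groups were 0.91 apart, and the means were 1.09 ± 0.28 in scion and -0.13 ± 0.08 in rootstock flower buds (SD, n = 3 each), a difference of 1.22 (SE 0.17) or 2.33-fold. The 9 arrays of the other groups all lay between -0.31 and 0.06. Scion leaves had 0.05, -0.29 and 0.05, against -0.08, -0.31 and 0.06 in rootstock leaves. The leaf difference was 0.05 (SE 0.17, 95% interval -0.33 to 0.42, limma adjusted p = 0.990). Flower buds minus leaves came to 1.15 in the scion and to -0.02 in the rootstock, so the 3 lower groups had no order beyond their spread.

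AT3G46770 had the smallest difference of the 4 genes in flower buds and the widest spread in rootstock leaves. Its values were 1.20, 1.05 and 1.58 in scion flower buds, against 0.40, 0.09 and -0.05 in rootstock flower buds. The groups did not overlap, with 0.65 between the nearest arrays. The means of 1.28 ± 0.27 in scion and 0.15 ± 0.23 in rootstock flower buds (SD, n = 3 each) differed by 1.13 (SE 0.42), or 2.19-fold. This SE was larger than that of the other REM genes because 1 spread was fitted for all groups of a gene.

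In leaves AT3G46770 had the opposite direction, with -2.34, -1.74 and -2.59 in the scion against 0.05, -1.32 and -1.91 in the rootstock. Rootstock leaf 1 lay at the level of the rootstock flower buds, and rootstock leaf 3 lay below scion leaf 2. Leaves of the same replicate number, which may not be pairs, differed by -2.40, -0.42 and -0.68, the scion leaf being lower each time. In rootstock leaf 1 the signal of the bud probe sets was 1.56%, against 1.14% and 1.51% in the other rootstock leaves. It was 2.49%, 1.36% and 3.43% in scion leaves 1 to 3. The difference of -1.16 (SE 0.42, 95% interval -2.10 to -0.23) did not pass the test in limma (adjusted p = 0.563, unadjusted p = 0.0191) and was -0.61 without rootstock leaf 1. With array weights it was -1.99, and it then passed the test (adjusted p = 0.000797). The estimate of those weights did not converge, and it gave scion leaf 1 a weight of 37.3 against 0.2 to 1.84 for the other leaves. With gene-by-gene weights, tried after seeing the data, the leaf difference was -1.81 (limma adjusted p = 0.0325). Both settings called many more probe sets in leaves. With array weights 432 rose and 305 fell, with gene-by-gene weights 115 and 111, and without weights 6 and 6. Flower buds lay above leaves for AT3G46770 by 3.50 in the scion, or 11.3-fold, and by 1.20 in the rootstock, where the organs overlapped.

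In leaves 0 of the 4 genes passed the limits of an adjusted p of 0.05 and a 2-fold change in limma, against 0.0528% of all probe sets in either direction and 0.0264% in each, and 2 of them, NGAL1 and AT3G46770, had an unadjusted p under 0.05, as did 7.15% of all probe sets. The leaf arrays may have entered the analysis of variance behind the choice, so the leaf test may not be wholly free of it. Of the 4 genes AT3G46770, at 1.13, lay nearest above the 2-fold limit in flower buds. The B3 gene nearest below it was AT5G25470, at 0.98, named for that place. NGAL2, another RAV repressor of boundary genes, differed by 1.03 or 2.05-fold and is not in the study's list.

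The other 42 B3 genes were measured on the same arrays. The study's tables of changed genes hold 5 of them, and RAV1, RAV2 and VAL1 could be named only through those tables, so the 42 are not wholly free of its choice. In flower buds 0 of them rose, against 0.237% of all probe sets, and 1 fell, against 0.158%. Scion flower buds had higher values for 10 of these genes (23.8%) and lower values for 32, while 44% of all probe sets were higher. The single gene that fell was the REM gene AT1G05920, with -0.18, -0.06 and 0.23 in scion flower buds against 0.92, 1.15 and 1.12 in rootstock flower buds. Its groups did not overlap, and the difference was -1.07 (SE 0.17, limma adjusted p = 0.0348). AT1G05920 also stands in the study's own tables, and its call held in 5 of 12 leave-one-out fits.

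**Figure D2:**
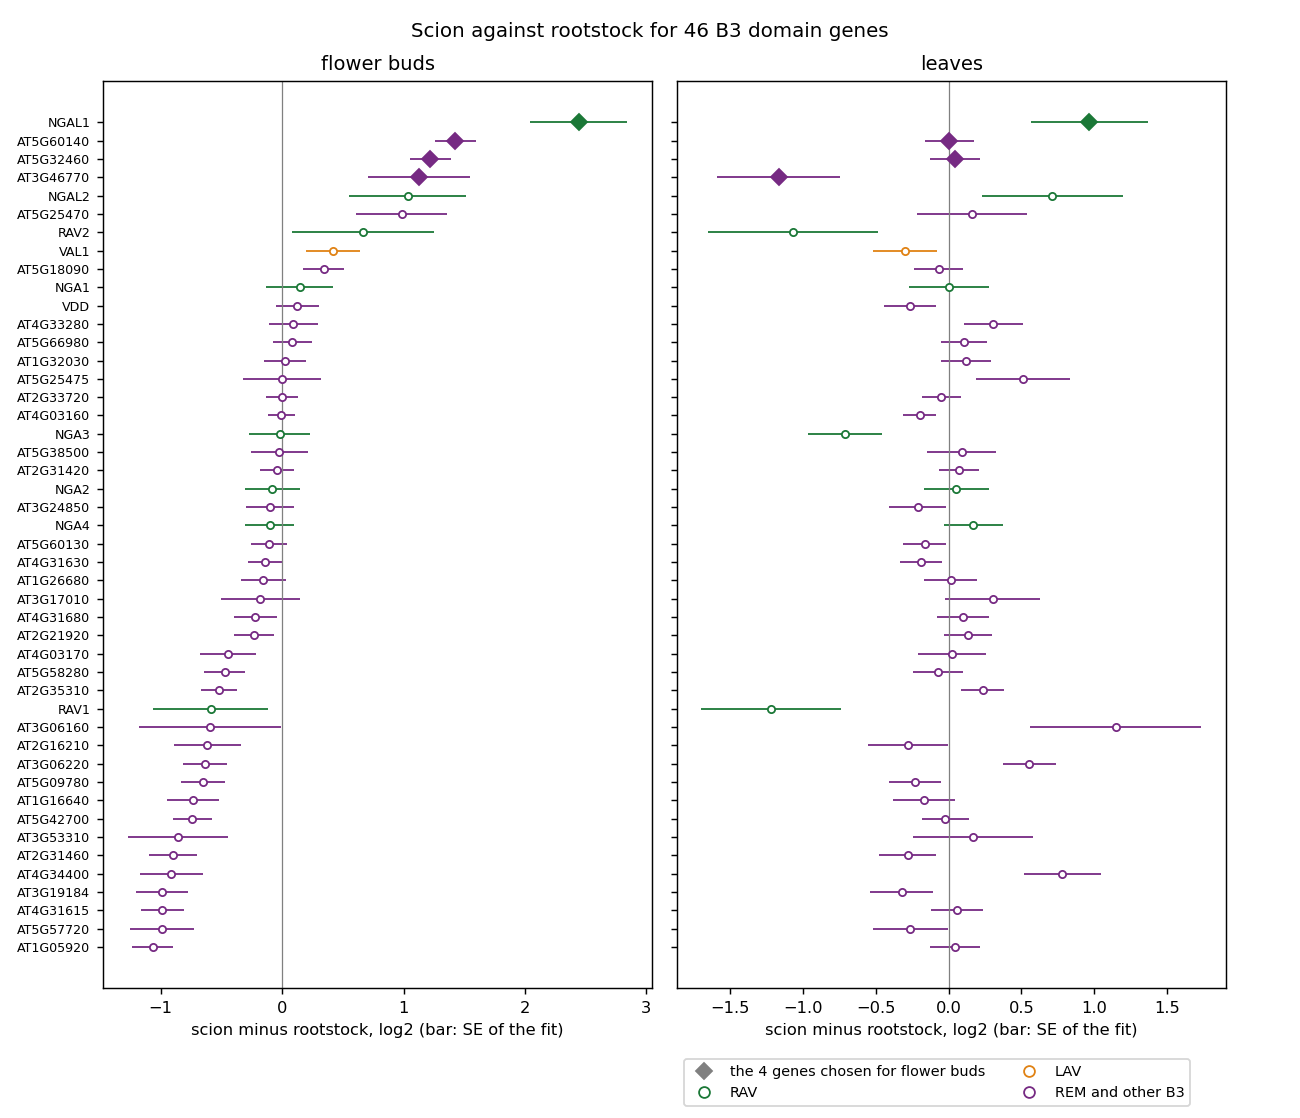
Scion minus rootstock difference in log2 (x axis, bar: SE of the fit) of the 46 B3 genes (rows, in order of the flower bud difference) in flower buds and in leaves, coloured by family, with diamonds for the 4 genes. In flower buds the 4 genes form the top rows from 2.44 to 1.13, which their choice on these arrays favours. Of the 34 other REM genes 28 lie below 0.

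Most other REM genes, a list that also holds B3 genes outside the named families, lay on the other side from AT5G60140, AT5G32460 and AT3G46770. Of these 34 genes 6 (17.6%, against the 44% of all probe sets) were higher and 28 lower in scion flower buds, with a median difference of -0.23, against -0.04 over all probe sets. At an unadjusted p of at most 0.05 in limma, 13 were lower and 1 was higher. Of all 22746 probe sets 2506 had such a p in either direction, and 1158 of those (5.09% of all) were lower. Without scion flower bud 1 the count of lower genes was 22 of 34 and the median -0.21. The part of the bud signal given above in these values was not tested.

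Among the relatives of NGAL1, 7 other RAV genes could be named on the arrays, and 0 of the 7 passed the limma test in flower buds. NGAL2 came closest to NGAL1, with 0.80, -0.36 and -0.23 in scion flower buds against -0.72, -0.64 and -1.54 in rootstock flower buds. Its groups did not overlap, yet the difference had an SE of 0.48 and an adjusted p of 0.472 in limma. The difference was 0.67 for RAV2 (TEM2, a repressor of the florigen gene FT), -0.59 for RAV1, and between -0.10 and 0.14 for NGA1, NGA2, NGA3 and NGA4, which act in style and lateral organ growth. In leaves NGAL2 differed by 0.71, with the 3 scion leaves between 0.41 and 0.90 and the rootstock leaves between -1.18 and 0.82. RAV1 differed by -1.22 in leaves and RAV2 by -1.07, and neither passed (limma adjusted p = 0.613 and 0.805). With the replicate number as a block within leaves RAV1 passed, at an adjusted p of 0.0368, but RAV1 and RAV2 were named through the study's tables of genes changed on these arrays, so their leaf values are no independent evidence. Of the 6 listed organ boundary genes only LAS, which acts in axillary meristems, could be named on the arrays. It differed by -0.21 in flower buds and 0.07 in leaves (limma adjusted p = 0.619 and 0.977).

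The gene next to AT5G60140 on its chromosome, the B3 gene AT5G60130, did not share its pattern. Its 12 values lay between -0.18 and 0.28, and scion minus rootstock was -0.11 in flower buds (limma adjusted p = 0.896). Centred values do not show whether its signal lay above background. AT5G60142, the neighbour on the other side, was not analysed here. AT3G06160, a REM gene in the study's list of transcription factors, had 0.36, 0.68 and 1.13 in scion flower buds against 1.45, 1.30 and 1.20 in rootstock flower buds. In leaves it had -1.29, -3.16 and -0.36 in the scion against -2.30, -3.49 and -2.46 in the rootstock. Neither difference passed the test in limma (adjusted p = 0.824 and 0.770), and the widest spread was in scion leaves. There its values had the same order as the bud signal of those arrays, which was 2.49%, 1.36% and 3.43%. The part of that signal in its values was not tested.

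In leaves 23 of the other 42 B3 genes were higher and 19 lower in the scion. In limma 0 of the 42 were called, the unadjusted p was under 0.05 for 4 of them, and the median was 0.02, against -0.01 over all probe sets. A test of whether the scion minus rootstock difference itself differed between flower buds and leaves gave 0 of the 42 genes and 0 of all probe sets at an adjusted p of 0.05, and 7 of the 42 at an unadjusted p of 0.05, against 7.74% of all probe sets.

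Between organs the other B3 genes moved widely. In the rootstock 17 of the 42 rose in flower buds over leaves and 3 fell, against 13.7% and 12% of all probe sets, and in the scion 13 rose and 3 fell, against 10.5% and 7.91%. All genes that rose were of the list of REM and other B3 genes. AT3G06220 had the largest difference in the rootstock, 5.88 (SE 0.18, limma adjusted p = 2e-08), and 4.69 in the scion. AT4G34400 differed by 5.40 in the rootstock and 3.70 in the scion, AT2G16210 by 4.83 and 4.50, and AT2G35310 by 4.24 and 3.48. On this scale AT5G60140, at 1.85 in the rootstock and 3.27 in the scion, stood with the REM genes high in flower buds, while AT5G32460 stood with those near 0 in the rootstock. Genes that fell in flower buds came from the other families. RAV2 fell by 4.14 in the rootstock and by 2.40 in the scion, RAV1 fell by 2.89 and by 2.26, NGA2 fell by 1.12 in the scion, and VAL1 fell by 1.06 in the rootstock.

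**Figure D3:**
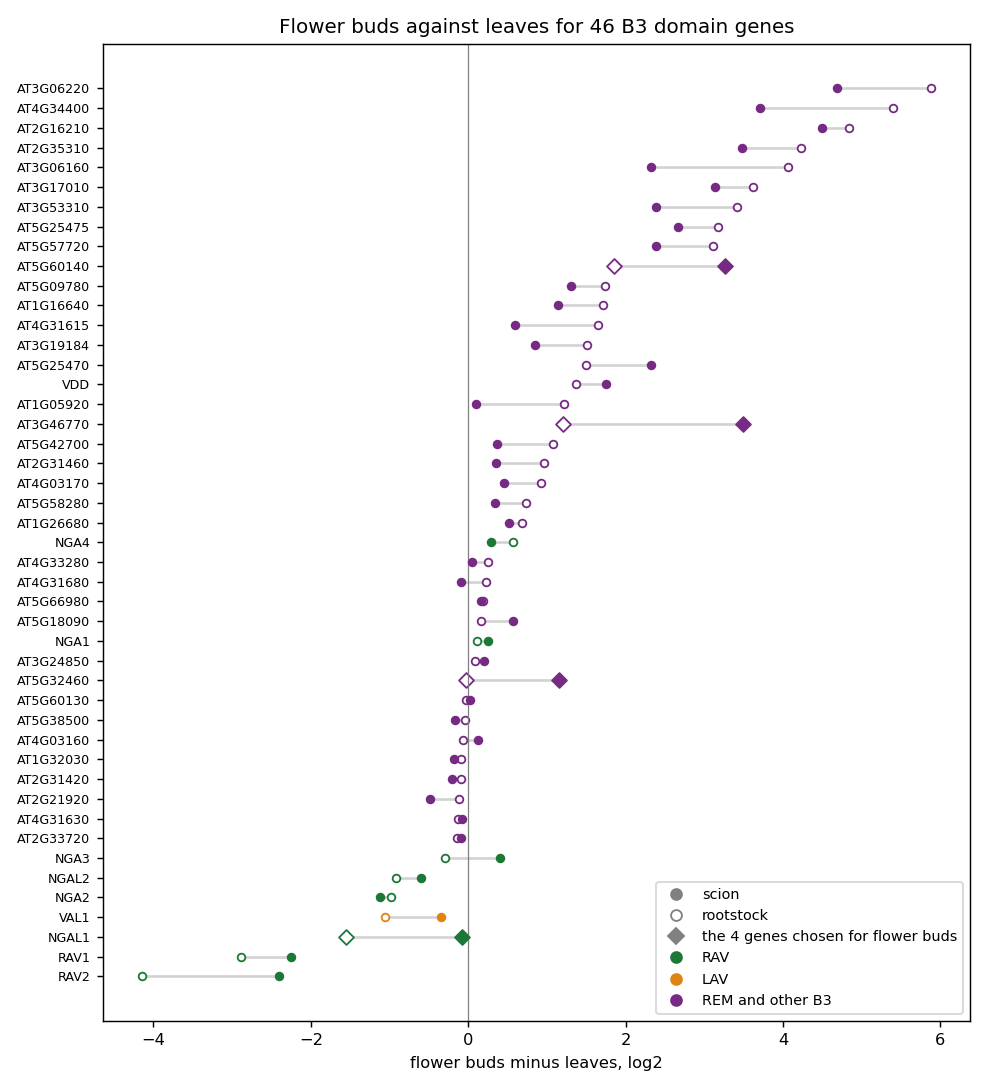
Flower buds minus leaves in log2 (x axis) for the 46 B3 genes (rows), with filled symbols for the scion and open symbols for the rootstock, and diamonds for the 4 genes. The filled diamonds lie to the right of the open ones (AT3G46770: 3.50 in the scion and 1.20 in the rootstock), which the choice of these genes favours. Most REM genes at the top have the open symbol further right (AT3G06220: 4.69 in the scion and 5.88 in the rootstock).

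Genes with the most similar profile were ranked by Pearson's r over the 12 arrays among all probe sets of 1 named gene, as a description, since the arrays share the 4 groups. The 3 genes most like NGAL1 were AFP1 (r = 0.958), which binds the abscisic acid response factor ABI5, and the homeodomain-leucine zipper genes HB-7 (0.954) and HB-12 (0.951), both known to respond to water deficit and abscisic acid. AFP1 spanned 0.40 to 1.97 in scion flower buds and -1.68 to -1.28 in rootstock flower buds. HB-7 spanned 0.12 to 2.41 in scion and -2.49 to -2.38 in rootstock flower buds. Each was highest in scion flower bud 1 among the 3 scion flower buds, as NGAL1 was. Closest among B3 genes was NGAL2, with r = 0.846.

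**Figure D4:**
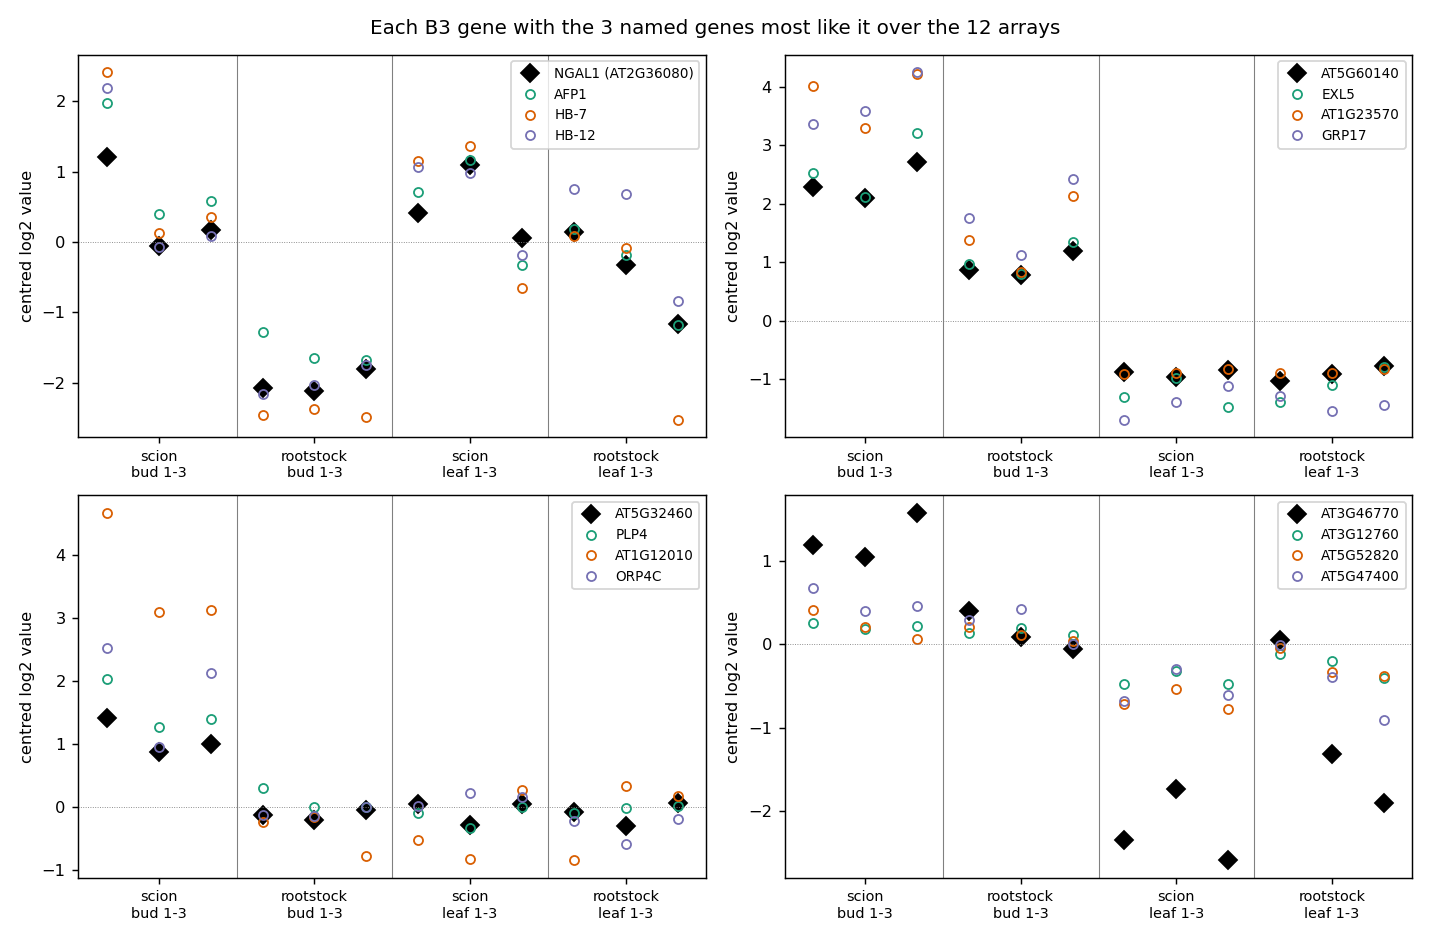
Centred log2 values (y axis) on the 12 arrays (x axis, replicates 1 to 3 within each group) of each B3 gene (black diamonds) and the 3 named genes most like it (open circles). The pollen coat genes EXL5 and GRP17 follow the group levels of AT5G60140 (r = 0.994 and 0.993) but not its order of arrays within every group, while the genes most like AT3G46770 move within a far narrower range than it does.

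The profile of AT5G60140 was most like those of EXL5 (r = 0.994), an extracellular lipase of the pollen coat, AT1G23570 (0.993) and GRP17 (0.993), an oleosin-like protein of the pollen coat. EXL5 spanned 2.12 to 3.20 in scion flower buds and 0.79 to 1.35 in rootstock flower buds. Over 8 pollen coat genes the median value was 3.56, 3.06 and 4.32 in scion flower buds, against 1.65, 1.11 and 2.36 in rootstock flower buds, and -1.68 to -1.33 in leaves. In both bud groups replicate 3 was the highest and replicate 2 the lowest, the same order as for AT5G60140. All 8 of these genes stand in the study's tables of changed genes, and 7 could be named only through them, so this list shares the study's choice on these arrays. The median over 10 listed tapetum genes, active in the anther layer that feeds young pollen, was lower in the scion flower buds. It was 1.43, 2.20 and 2.07 there, against 2.71, 2.74 and 2.55 in rootstock flower buds. In leaves it was -2.40, -4.54 and -1.43 in the scion, against -4.78, -4.47 and -4.51 in the rootstock. In the same tables stand 9 of these 10 genes. No cell type is called from either list, and the part of what these lists follow in the values of AT5G60140 was not tested. Closest among B3 genes was VDD (r = 0.921), which acts in the embryo sac and differed by 0.12 between scion and rootstock flower buds.

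AT5G32460 was most like PLP4 (r = 0.967), a patatin-like phospholipase, AT1G12010 (0.955), an oxidase of ethylene synthesis, and ORP4C (0.945), an oxysterol-binding protein relative. AT1G12010 had the widest range of them, 3.10 to 4.68 in scion flower buds and -0.78 to -0.17 in rootstock flower buds. All 9 genes most like NGAL1, AT5G60140 and AT5G32460 stand in the study's own tables of changed genes, so they share its choice on these arrays. The 3 most like AT3G46770 do not. They were AT3G12760 (r = 0.957), AT5G52820 (0.941) and AT5G47400 (0.935), with flower bud differences of only 0.07, 0.11 and 0.27, and they resembled it in the contrast of organs. Closest to AT3G46770 among B3 genes was AT5G25470 (r = 0.901), and closest to AT5G32460 was AT5G60140 (r = 0.780).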

How the data were processed

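The authors hybridised 12 Affymetrix ATH1 arrays and deposited log2 values made by RMA (GeneSpring GX). In the deposited log2 values every probe set has a median of 0 across arrays (largest departure 5e-07), a centring the methods do not state, so levels and background cannot be read. The effect of RMA on the largest differences was not tested.

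The members and lists were chosen with earlier results of these data known. Of 22810 probe sets, 64 controls were left out. The platform annotation names a single gene for 13513 probe sets and the study's tables for 471 more, and both give the same locus for 449 of 451. NGAL1 is named by the study's tables alone. A probe set for AT4G01580 matches several genes on the platform and was not used. Of 112 listed B3 genes 46 had a probe set named for a single gene (8 RAV, 1 LAV, 0 ARF and 37 REM and other B3). Only these are called measured here. A further 8259 probe sets had no name and 503 matched several genes, so other listed genes may be on the arrays without a name. RefSeq tables gave gene neighbours only.

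A limma 3.58.1 model (R 4.3.3) with 4 group means was fitted over all arrays, with 8 residual degrees of freedom and Benjamini-Hochberg adjustment over 22746 probe sets. A call needed at least a 2-fold change and an adjusted p no higher than 0.05, the limits of the methods. The script was tested on simulated data. The named genes were the 4 members, the measured RAV genes, the neighbours of AT5G60140, the B3 genes of the study's transcription factor tables, LAS, up to 3 other B3 genes past the test per contrast and direction, the 3 genes most like each member, and up to 3 genes of each marker list, which are given here by list medians. Python 3.11.15 and pandas 2.3.3 made the tables, and matplotlib 3.10.9 the figures.

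Deviations from the group means in same-numbered scion and rootstock samples correlated at 0.342, 0.714 and 0.816 in leaves and at 0.0234, 0.0741 and 0.201 in flower buds. Scion leaf 2 and rootstock leaf 1 correlated at 0.396, above the same-numbered pair 1, and the other leaf pairs of unlike number at -0.788 to -0.0166. Whether the numbers pair the leaves is therefore not settled by these values. The methods call the replicates independent, and which plants each sample holds is not given in the sources used here.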

Additional observations from a re-analysis of the deposited data

How the results depend on the processing

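In flower buds the 4 genes stayed higher in the scion in every alternative run, which their choice on these same arrays favours. Leaving out 1 array gave 2.06 to 2.69 for NGAL1, 1.25 to 1.56 for AT5G60140, 1.06 to 1.33 for AT5G32460 and 0.98 to 1.26 for AT3G46770. Quantile normalization gave AT5G60140 1.75, AT5G32460 1.53 and AT3G46770 1.49, and array weights gave AT5G60140 1.70. In leaves AT3G46770 passed the test with array weights (-1.99), with gene-by-gene array weights (-1.81), chosen after seeing the data because the default estimate of the weights did not converge. The methods' one-way analysis of variance, run here over all 4 groups, put it past the limits too (-1.16), but that p covers any difference among the groups and is no test of leaves. The leaf difference of AT5G60140 turned to -0.079 with quantile normalization. When 1 array was left out it ran between -0.059 and 0.070, and that of AT5G32460 between -0.054 and 0.16, both around 0. That of NGAL1 ran between 0.61 and 1.26 and that of AT3G46770 between -1.59 and -0.61.

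Of the other B3 genes in flower buds, 1 rose with array weights, 4 fell with array weights, 4 fell with gene-by-gene array weights and 2 fell with quantile normalization. Leaving out 1 array gave 0 to 4 of the other B3 genes that fell. It was 0 without scion flower bud 1, any 1 rootstock flower bud, scion leaf 1, rootstock leaf 1 or rootstock leaf 2. It was 4 without scion flower bud 2, where 67 of all probe sets fell. In leaves 1 of the other B3 genes rose with array weights and 1 by the p of the analysis of variance. The number that fell was 1 with the replicate block within the organ, 2 with array weights and 1 with gene-by-gene array weights. It was 2 by the p of the analysis of variance, which again is no test of leaves. Over all probe sets 432 rose and 305 fell in leaves with array weights, against 6 and 6 in the limma model given above. With gene-by-gene weights 111 of all probe sets fell in leaves, and with the block within the organ 67. With names of the platform annotation alone, 0 fell in flower buds of the rootstock against its leaves and 1 in the scion. Leaving out 1 array gave 3 to 5 that fell in the rootstock, with 5 without rootstock leaf 3. The cause of these shifts was not tested, apart from the fewer genes named by the platform alone.

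With the replicate number as a block the leaf difference was 0.96 for NGAL1 and -1.16 for AT3G46770, as without it, and it changed no call of the 4 genes. Of the named genes it added RAV1 in leaves when set within the organ (adjusted p = 0.0368). A block within the organ gives no contrast between organs, which were not run with it. With 3 arrays a group, small differences were not detectable, and signal over background cannot be judged from centred values.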
